A study of Oryza sativa with 32 samples.

Results

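Expansins and xyloglucan endotransglucosylase/hydrolases (XTHs) are the wall-loosening proteins of growing plant tissue. Expansins let cellulose and matrix polymers slip past each other at acid pH without cutting them, and grasses carry an enlarged beta family beside the alpha family found in all land plants. XTHs cut xyloglucan chains and rejoin them, which loosens or remodels the tethers between cellulose fibrils. In roots, genes of both families are known from the elongation zone, from emerging root hairs and from lateral root outgrowth.

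The members described here are the genes of the rice array whose symbol or synonym starts EXPA, EXPB, EXLA, EXLB, EXP, XTH or XET followed by a number, after a leading Os is dropped. The rule found 50 genes in the RefSeq gene table, and 30 of them had a probe set of their own, 34 probe sets among the 57381 on the array. They were 14 alpha-expansin genes with 16 probe sets, 11 beta-expansin genes with 12, 4 expansin-like A genes with 5, and 1 XTH gene, XTH8. The rule reads names only, and 34663 probe sets had no gene. XTHs without such a name are not covered, so XTH8 does not stand for the whole family. No expansin-like B gene had a probe set. EXPA7 had 3 probe sets, and EXLA2 and EXPB17 had 2 each, given below as set 1, set 2 and set 3.

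The arrays compared 3 transgenic lines of Oryza sativa cv. Nipponbare, AGR1/7, AGR1/8 and AGR3/8, with wild type (WT) Nipponbare. Each line carries OsANT1:HvAlaAT, a barley alanine aminotransferase behind the rice OsANT1 promoter, and the labels call the lines independent. The enzyme moves an amino group between alanine and glutamate, with pyruvate and 2-oxoglutarate as the keto acids. All plants grew in hydroponic culture with 5 mM NH4+ as nitrogen, at 28 °C with 14 h days and 10 h nights, and root and shoot were sampled at maximum tillering. There were 8 groups of 4 arrays, labelled as biological replicates, so each tissue had 12 line arrays and 4 WT arrays.

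Expression of the transgene was not analysed here. Values are the deposited intensities, on which every array had a 2% trimmed mean close to 100.02, and the median intensity of an array lay between 14.1 and 17.8. The tissue labels fitted the markers with 1 exception. In WT, 11 of 11 tested shoot marker probe sets (small subunit of Rubisco, chlorophyll-binding protein and others) were called lower in root. Of 9 root marker probe sets (for LSI1, IRT1, NRAMP5 and others) 8 were called higher in root and 1 was called lower (-0.73 in log2). Replicate 1 of root WT was the array least like its own group, with a mean r of 0.937 to it, where the middle root array had 0.978. Line differences of members whose call was lost without it are given below with and without it. Other root differences are over all arrays unless stated.

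Differences are on the log2(intensity + 16) scale, which understates the change of dim probe sets, and are called where limma's Benjamini-Hochberg adjusted p over all 38129 probe sets tested was under 0.05. Of the 34 member probe sets, 28 passed the filter on dim signal in root, 21 in shoot and 27 in the fit over all arrays. The 6 that passed in neither tissue were EXPA4, EXPA26, EXPA31, EXPA32, EXPA7 set 3 and EXPB10, the last a gene of the group-1 grass pollen allergen type. These 6 had intensities of 0.2 to 16.2 on every array. The signals of different probe sets are not a measure of relative transcript amount, so no order between genes is drawn from them.

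The strongest pattern was the difference between organs. In WT, 22 of 27 tested member probe sets were higher in root than in shoot and 1 was lower, beside 31.9% higher and 27.3% lower among all probe sets. The filter took the mean of all arrays, so members with signal in root alone could enter. EXPA8, EXPA29, EXPB2, EXPB9, EXPB17 set 1 and EXPA7 set 2 did not pass the filter in shoot. All of these but EXPA7 set 2 were called higher in root, a direction favoured by how they entered. The members' median root minus shoot difference was 1.92 in log2, against 0.02 over all probe sets. The size depends on the added constant, since many members are dim in shoot: the median was 2.37 with a constant of 4 and 1.12 with 64. Since whole organs were extracted, fewer cells of a type and less RNA per cell cannot be told apart. On 12 of the 34 member probe sets each of the 16 root arrays, lines included, exceeded each of the 16 shoot arrays, a separation found for 11% of all probe sets. On 1, EXLA4, each root array was below each shoot array, beside 9.24% of all probe sets.

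**Figure D1:**
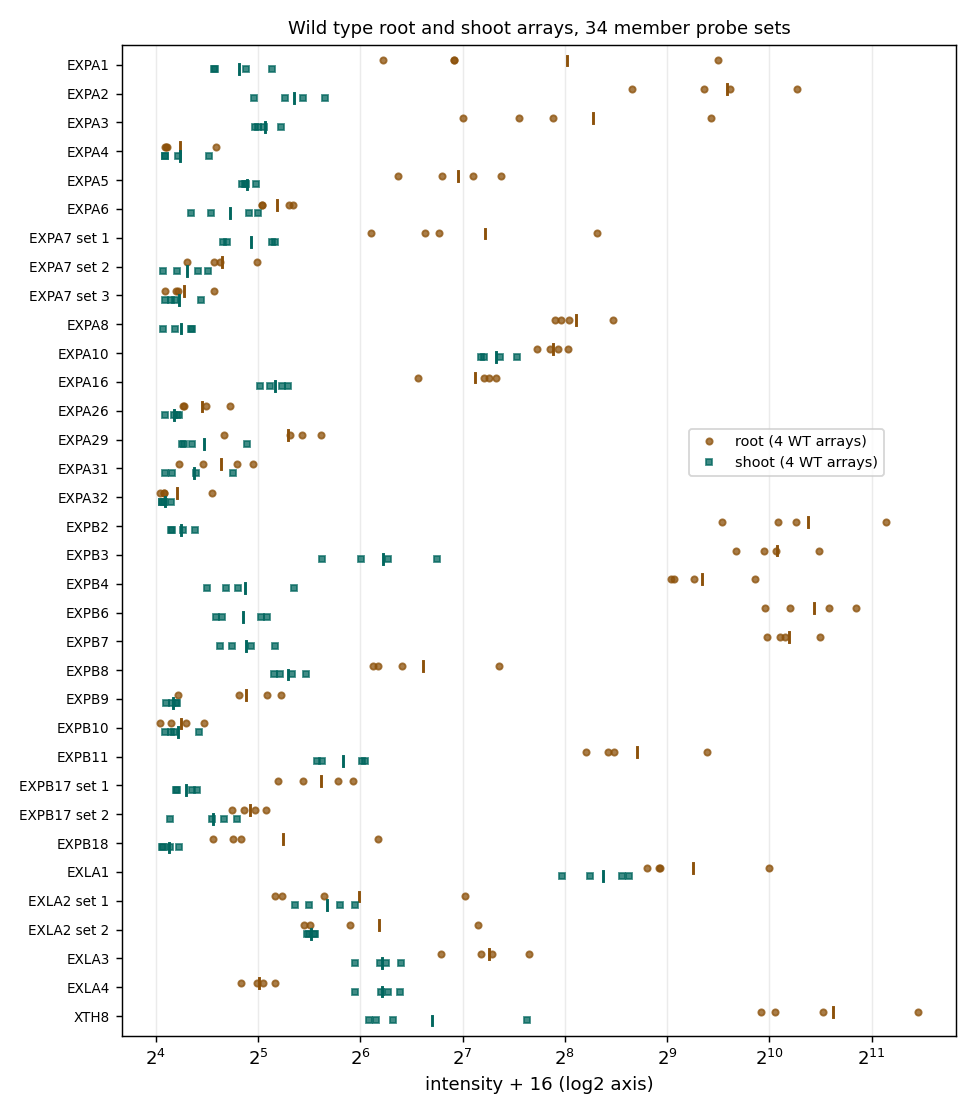
Intensity + 16 (log2 axis) of the 34 member probe sets on the 4 root (circles) and 4 shoot (squares) WT arrays, with a vertical tick at the arithmetic mean of each. The beta-expansins EXPB2, EXPB4, EXPB6 and EXPB7 show the widest separation, EXLA4 is the member with shoot above root, and 6 probe sets such as EXPA32 sit near the left edge in both organs.

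Beta-expansins held 4 of the 6 widest differences on this scale, with 9 of 10 tested probe sets called higher in WT root, a median of 3.34 and none called lower. EXPB2, EXPB3, EXPB4 and EXPB6 are neighbours in the RefSeq gene table. EXPB2 had intensities of 2242, 1212, 726.7 and 1069 on the 4 root WT arrays, against 1.8, 4.9, 1.9 and 3.3 on the shoot WT arrays. Its shoot signal stayed at 1.7 to 4.9 on all 16 shoot arrays, while its 16 root arrays ran from 294.0 to 2242 with a median of 726.3. That shoot signal lay under the shoot filter of 6.93, so the size of the difference depends on the added constant: 6.01 ± 0.30 with 16 (SE; adjusted p = 2.41e-17), 7.46 with 4 and 4.25 with 64.

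EXPB6 followed, with 1824, 980.8, 1516 and 1159 in root WT, against 16.6, 8.1, 9.0 and 18.0 in shoot WT. The groups did not overlap, and the difference was 5.56 ± 0.24 (adjusted p = 4.9e-19). EXPB7 had 1082, 1119, 989.8 and 1430 in root WT, against 10.9, 8.7, 19.9 and 14.5 in shoot WT. Its 4 root values were the closest to each other among these beta-expansins, and its difference was 5.31 ± 0.22 (adjusted p = 3.08e-19).

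EXPB4 is measured by a probe set of the type that can match several transcripts, so its signal may be shared with a relative. It averaged 634.7 ± 190 in root WT and 13.3 ± 8.0 in shoot WT (SD, n = 4 each), a difference of 4.47 ± 0.27 (SE; adjusted p = 3.84e-15). EXPB3, known like EXPB4, EXPB6 and EXPB11 from elongating internodes of deepwater rice, averaged 1063 ± 261 in root WT and 58.7 ± 24.7 in shoot WT (SD, n = 4 each). Unlike EXPB2 it kept a measurable shoot signal, up to 93.6 on a shoot AGR1/7 array. The difference was 3.88 ± 0.39 (SE; adjusted p = 3.15e-10).

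EXPB11 averaged 400.3 ± 171 in root WT and 41.0 ± 9.8 in shoot WT (SD, n = 4 each), a difference of 2.81 ± 0.23 (SE; adjusted p = 3.37e-12). Smaller differences were called for EXPB8 at 1.22, EXPB17 set 1 at 1.29 and EXPB9 at 0.67. EXPB9 was dim, at 2.6 to 21.3 in root WT and 1.2 to 2.5 in shoot WT. Its value was 0.23 with a constant of 64, and its call was lost under 3 of 41 alternatives. The 2 probe sets of EXPB17 disagreed, since set 2 gave 0.38 ± 0.19 (adjusted p = 0.0985).

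All 11 tested alpha-expansin probe sets had a positive root minus shoot difference in WT, and 10 were called higher in root, with a median of 2.01. EXPA2, another gene known from deepwater internodes, had 386.5, 642.4, 1218 and 767.0 in root WT, against 34.3, 15.1, 22.4 and 27.5 in shoot WT. Replicate 3 was the highest of its root values and replicate 1 the lowest, unlike most members, and the difference was 4.14 ± 0.34 (adjusted p = 3.83e-12). EXPA8, studied in rice for its effect on root system architecture, averaged 260.7 ± 52.8 in root WT and 2.95 ± 1.73 in shoot WT (SD, n = 4 each). Its shoot signal did not exceed 12.2 on any of the 16 shoot arrays, and its shoot WT values lay under the shoot filter. The difference, whose size depends on the added constant, was 3.85 ± 0.20 with 16 (SE; adjusted p = 5.16e-17), 5.27 with 4 and 2.27 with 64.

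EXPA3 was higher in root by 2.90 ± 0.33, EXPA1 by 2.60 ± 0.49, EXPA7 set 1 by 2.04 ± 0.35, EXPA5 by 2.01 ± 0.24 and EXPA16 by 1.92 ± 0.18. The adjusted p of these 5 lay between 8.75e-11 and 2.81e-05. EXPA7 set 2, at 3.8 to 15.9 in root WT and 0.8 to 6.8 in shoot WT, was not called (0.32 ± 0.21; adjusted p = 0.188), so the 2 tested sets of that gene disagree.

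EXPA10, whose rice transcript is known to respond to aluminium in roots, had signal in both organs. It had 244.9, 195.8, 227.8 and 215.2 in root WT, against 148.6, 132.4, 169.0 and 129.0 in shoot WT. The 4 root values all lay above the 4 shoot values, by 0.56 ± 0.16 on average (adjusted p = 0.00262). Over all 16 arrays of each organ the ranges overlapped, 81.0 to 261.2 in root and 129.0 to 196.7 in shoot.

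The expansin-like A genes, relatives of expansins for which no wall-loosening activity is established, passed the filter in both organs with all 5 probe sets, as did 8 alpha-expansin and 7 beta-expansin probe sets and XTH8. EXLA1 had 1006, 431.5, 470.5 and 470.0 in root WT, against 235.1, 378.8, 287.9 and 361.6 in shoot WT, a difference of 0.81 ± 0.21 (adjusted p = 0.00161). Replicate 1 of root WT was the highest EXLA1 value of all 16 root arrays. EXLA3 averaged 137.2 ± 37.1 in root WT and 57.9 ± 9.27 in shoot WT (SD, n = 4 each; 1.03 ± 0.18 SE, adjusted p = 1.35e-05).

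EXLA4 went the other way, with 19.8, 12.5, 17.1 and 15.8 in root WT, against 45.8, 67.8, 61.4 and 57.9 in shoot WT. The groups did not overlap, and the difference was -1.20 ± 0.14 (adjusted p = 1.45e-08), the sole member called lower in root. It was -1.62 with a constant of 4 and -0.60 with 64. Neither probe set of EXLA2 was called, at 0.11 ± 0.28 for set 1 (adjusted p = 0.755) and 0.48 ± 0.28 for set 2 (adjusted p = 0.139).

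XTH8, a rice XTH known to respond to gibberellin, had 2781, 1050, 953.1 and 1458 in root WT, against 182.3, 63.7, 51.8 and 55.0 in shoot WT. Replicate 1 was the highest of its group in both organs. The difference was 3.94 ± 0.32 (adjusted p = 3.54e-12).

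The comparison of the lines with WT asks whether the wall-loosening genes changed in plants carrying the transgene. In root, 1 of 28 tested member probe sets passed the test in the mean of the 3 lines, EXPB11, which fell. Among all probe sets 2.04% were called lower and 5.32% were called in either direction, so the members' share is near the background. The differences themselves leaned downward: 25 of 28 member probe sets had a value below 0, against 45.1% of all probe sets, and the members' median was -0.38, against 0.03. At an unadjusted limma p under 0.05 there were 10 members. The share of all probe sets at that threshold was not computed, here or for later counts of this kind, so no excess is read from them. No member had every line array under every WT array in root (0 of 28), a separation found for 0.643% of all probe sets.

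EXPB11 (LOC4330213) had 138.2, 258.4, 221.2 and 252.1 in root AGR1/7, 259.6, 142.8, 214.1 and 295.8 in root AGR1/8, and 219.7, 200.9, 208.1 and 215.7 in root AGR3/8. Root WT had 654.2, 279.6, 327.2 and 340.3. All 12 line arrays were below the WT mean, and the lowest WT array was exceeded by 1 line array, replicate 4 of AGR1/8. The mean of the lines fell by 0.78 ± 0.20 (SE; limma adjusted p = 0.0374), with nearly equal values in each line: -0.79 in AGR1/7, -0.74 in AGR1/8 and -0.80 in AGR3/8 (adjusted p = 0.0921, 0.151 and 0.0667).

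Replicate 1 of root WT, at 654.2, was far above the other WT arrays for EXPB11. Without it the difference was -0.52 and was no longer called (adjusted p = 0.148). The call was also lost without root WT replicate 3 (adjusted p = 0.0584) or replicate 4 (0.0559), although the difference grew to -0.84 and -0.82.

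**Figure D2:**
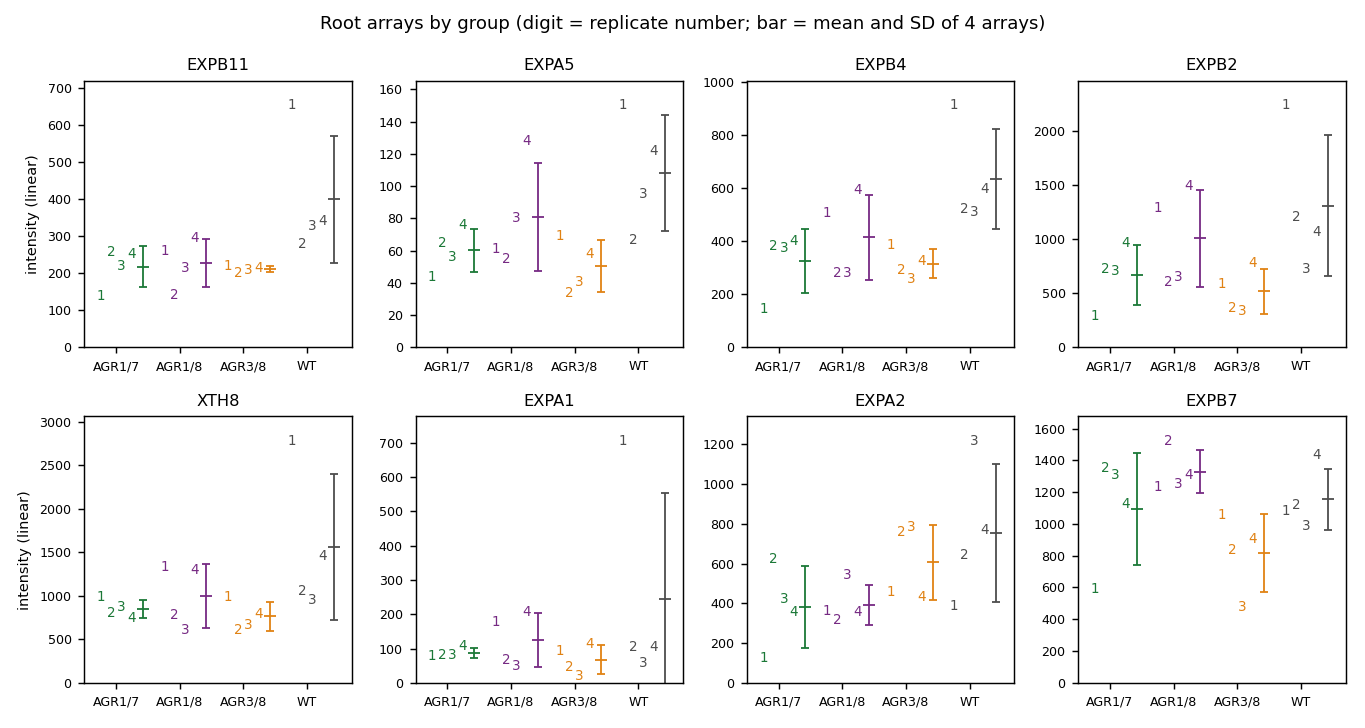
Intensity (linear axis from 0) of 8 members on the root arrays of AGR1/7, AGR1/8, AGR3/8 and WT, where each digit is the replicate number of an array and the bar gives the mean and SD of 4 arrays (cut at 0 for EXPA1 in WT). Replicate 1 of WT is the highest WT array for EXPB11, EXPA5, EXPB4, EXPB2, XTH8 and EXPA1 but not for EXPA2 or EXPB7, and replicate 1 of AGR1/7 is the lowest of its line for all of the 8 except XTH8, where it is the highest.

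All 11 tested beta-expansin probe sets had a value below 0 in the mean of the lines, with a median of -0.50. EXPB2 had 294.0, 725.9, 710.7 and 964.6 in root AGR1/7, 1293, 606.5, 655.1 and 1490 in root AGR1/8, and 588.9, 367.7, 341.0 and 782.3 in root AGR3/8, against 2242, 1212, 726.7 and 1069 in root WT. AGR3/8 had the lowest mean of the lines, and replicates 1 and 4 of AGR1/8 lay within the WT range. The mean difference was -0.86 ± 0.33 (adjusted p = 0.129). EXPB4 came nearest to the threshold among the others, at -0.85 ± 0.25 (adjusted p = 0.0551), with 12 of 12 line arrays below the WT mean. Over 28 alternative fits, which include leaving out single arrays, EXPB2 came as near 0 as -0.45 and EXPB4 as -0.56.

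EXPB6 gave -0.57 ± 0.24 (adjusted p = 0.157) and EXPB3 gave -0.50 ± 0.25 (adjusted p = 0.243), again with 12 of 12 line arrays below the WT mean for each. For both, line arrays exceeded the lowest WT array. Over the 28 alternative fits EXPB6 came as near 0 as -0.30 and EXPB3 as -0.35. EXPB7, among the brightest root members, averaged 1094 ± 350 in AGR1/7, 1328 ± 134 in AGR1/8, 818.5 ± 244 in AGR3/8 and 1155 ± 191 in WT (SD, n = 4 each). Its mean difference was -0.15 ± 0.20 (SE; adjusted p = 0.695), and AGR1/8 stood above WT while AGR3/8 stood below.

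XTH8 had 983.6, 796.6, 869.0 and 740.0 in root AGR1/7, 1333, 773.8, 605.6 and 1290 in root AGR1/8, and 987.3, 605.7, 666.7 and 796.3 in root AGR3/8, against 2781, 1050, 953.1 and 1458 in root WT. All 12 line arrays were below the WT mean, but 4 of them exceeded the lowest WT array. The difference was -0.74 ± 0.24 and was not called (adjusted p = 0.0809). Over the 28 alternative fits it came as near 0 as -0.42.

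Among alpha-expansins, 8 of 11 tested probe sets had a value below 0 in the mean of the lines, and none was called. The wide values were EXPA1 at -0.78 ± 0.48, EXPA7 set 1 at -0.76 ± 0.33, EXPA2 at -0.70 ± 0.32, EXPA5 at -0.65 ± 0.20 and EXPA3 at -0.60 ± 0.36 (adjusted p = 0.347, 0.179, 0.201, 0.0717 and 0.324). Over the 28 alternative fits these values came as near 0 as -0.06, -0.27, -0.44, -0.43 and -0.05, in that order. For EXPA1 the WT values were 705.4, 105.2, 58.6 and 105.0, so replicate 1 set the mean. The 3 probe sets above 0 were EXPA6, EXPA16 and EXPA7 set 2, each under 0.18 and not called. Each of the 5 expansin-like A probe sets was below 0, the widest being EXLA3 at -0.42 ± 0.17 (adjusted p = 0.14).

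Line by line, no member was called in root AGR1/7, beside 0.949% of all probe sets called lower and 2.47% in either direction, and 10 members had an unadjusted limma p under 0.05. None was called in root AGR1/8, beside 1.23% lower and 2.48% in either direction, with 2 members at an unadjusted p under 0.05. In root AGR3/8 1 of 28 was called, EXPA5, which fell, beside 2.21% lower and 5.41% in either direction. As single root arrays were left out, 8 to 13 members of that comparison had an unadjusted limma p under 0.05. The members' median was -0.46 in AGR1/7, -0.33 in AGR1/8 and -0.43 in AGR3/8, with 26, 22 and 25 of 28 probe sets below 0. These 3 comparisons share the 4 WT arrays.

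EXPA5 (LOC4330706) had 69.2, 33.6, 40.6 and 57.9 in root AGR3/8, against 150.2, 66.4, 95.1 and 121.6 in root WT. Only replicate 1 of the line reached above the lowest WT array, and the line fell by 0.89 ± 0.25 (SE; adjusted p = 0.0474). The value was -1.04 with a constant of 4 and -0.58 with 64. The other lines had 43.9, 64.8, 56.2 and 75.8 in AGR1/7 (-0.68; adjusted p = 0.143) and 60.9, 54.7, 80.1 and 128.1 in AGR1/8 (-0.37; adjusted p = 0.514). Without root WT replicate 1 the AGR3/8 difference was -0.74 and was not called (adjusted p = 0.124).

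Other values in root AGR3/8 that missed the threshold were EXPB2 at -1.27 ± 0.40 (adjusted p = 0.0716), EXPA7 set 1 at -1.17 ± 0.41 (0.0954), XTH8 at -0.91 ± 0.30 (0.0786) and EXLA3 at -0.61 ± 0.20 (0.0861). EXLA3 had 78.5, 87.4, 83.1 and 81.0 in root AGR3/8, against 94.8, 129.5, 184.7 and 140.0 in root WT, so those 2 groups did not overlap. Values above 0 also missed it: EXPA7 set 2 had 0.43 ± 0.15 (adjusted p = 0.102), opposite in sign to set 1 of its gene, and EXPA6 had 0.33 ± 0.12 (0.109), each with 4 of 4 line arrays above the WT mean. EXPA7 set 2 was called higher without root WT replicate 4 (0.55; adjusted p = 0.0452). An F test among the 3 lines called no member in root, where 2.99% of all probe sets were called and 4 members had an unadjusted p under 0.05. The pairwise line differences in root called none either: AGR1/8 minus AGR1/7 (2.44% of all probe sets; 2 members at an unadjusted limma p under 0.05), AGR3/8 minus AGR1/7 (0.383%; 2 members) and AGR3/8 minus AGR1/8 (2.16%; 3 members).

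**Figure D3:**
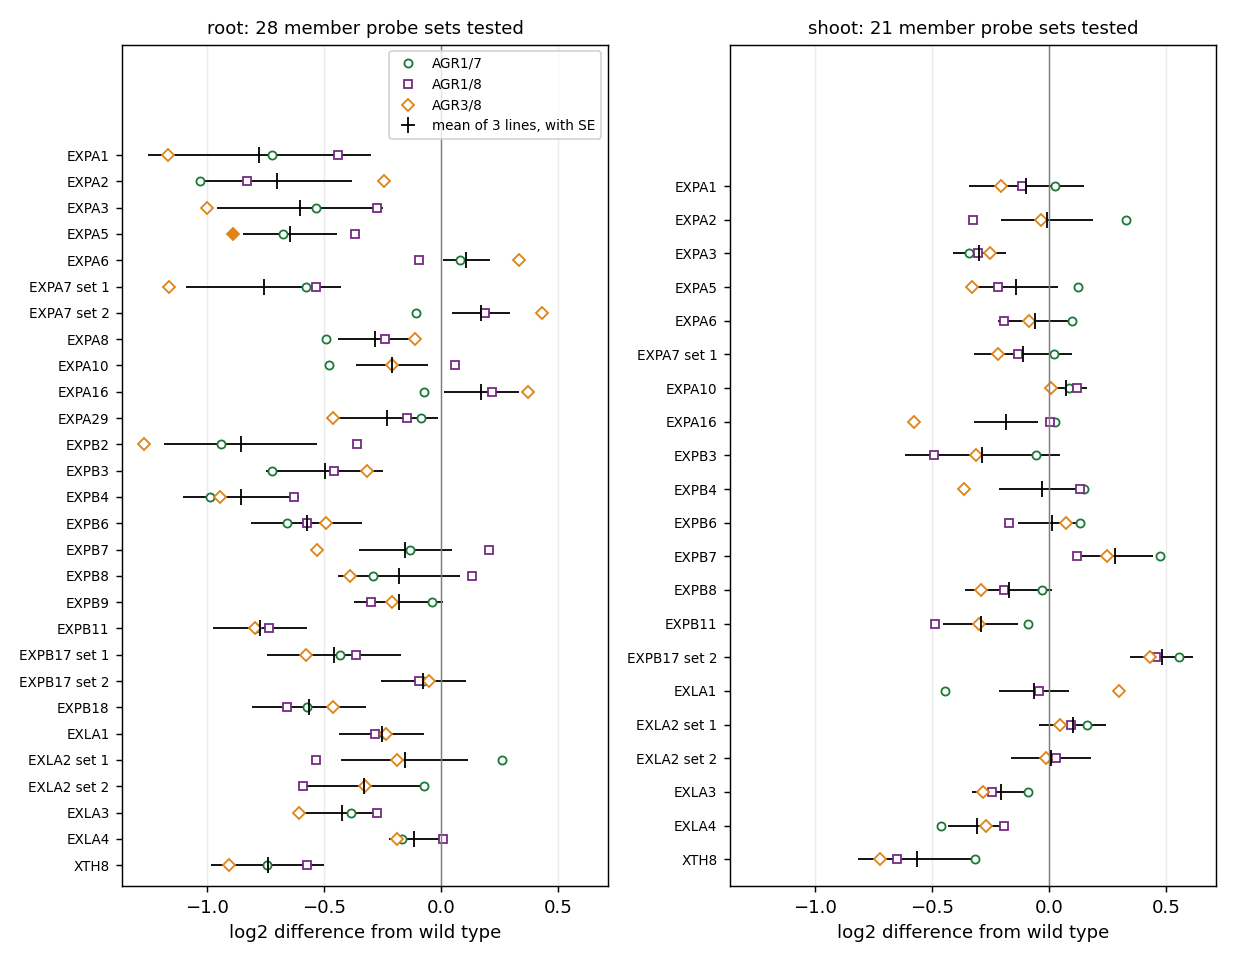
Log2 difference from WT of each tested member in root (left, 28 probe sets) and shoot (right, 21), for AGR1/7 (circles), AGR1/8 (squares), AGR3/8 (diamonds) and the mean of the 3 lines (black tick with SE); a filled symbol is a called line difference. Most root values lie left of 0, the filled diamond is EXPA5 in AGR3/8, and shoot values scatter on both sides of 0.

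The downward lean in root moved with individual arrays. Replicate 1 of root WT was the highest of its 4 arrays for 20 of 28 members (71.4%), against 27.1% of all probe sets, and its members lay a median of 0.55 above the other 3 arrays. Replicate 1 of root AGR1/7 was the lowest of its 4 for 22 of 28 members (78.6%, against 35.4%), with a median of -0.63. In AGR1/8, replicate 2 was the lowest for 18 members and replicate 4 the highest for 16. Without root WT replicate 1 the members' median in the mean of the lines was -0.17, with 21 of 28 below 0 and none called by limma, while 5 members had an unadjusted p under 0.05. Without both replicate 1 arrays, a check chosen after seeing the data, the median was -0.09, 22 of 28 were below 0, and EXLA3 alone was called (-0.49; adjusted p = 0.0157).

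**Figure D4:**
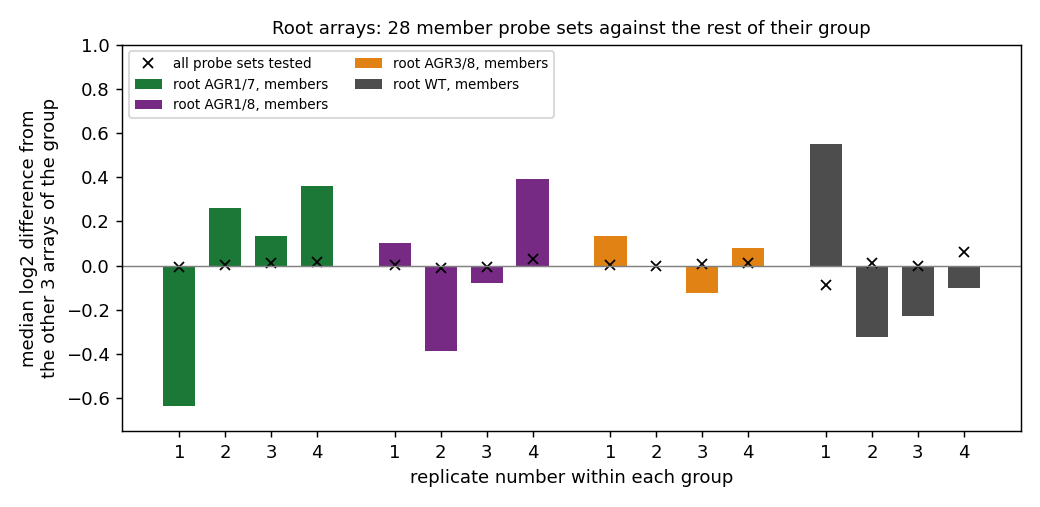
Median log2 difference of each root array from the other 3 arrays of its group, over the 28 tested member probe sets (bars) and over all probe sets tested (crosses), by replicate number within AGR1/7, AGR1/8, AGR3/8 and WT. The members reach -0.63 on replicate 1 of AGR1/7 and 0.55 on replicate 1 of WT, while the crosses stay near 0.

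In the expansin-like A family, EXLA1 and EXLA2 did not pair a low replicate 1 of AGR1/7 with a high replicate 1 of WT. EXLA1 was highest on replicate 1 in AGR1/7, at 726.8 against 388.3 to 411.0 on the other 3, and also on replicate 1 in WT, at 1006 against 431.5 to 470.5. EXLA2 set 1 had 95.9 on replicate 1 of AGR1/7 and 113.8 on replicate 1 of WT, with 33.5 to 42.4 and 19.8 to 34.1 on the other 3. Thus EXLA1 and EXLA2 were high on both arrays, while most alpha- and beta-expansins were low on the AGR1/7 array and high on the WT array. The family was not uniform: replicate 1 of WT was the lowest WT array for EXLA3 (94.8) and the highest for EXLA4 (19.8). XTH8, outside the family, was also highest on replicate 1 in both AGR1/7 (983.6) and WT (2781).

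Other gene lists of growing and wall-building cells moved with the same arrays. Over 26 tested cell division probe sets (MCM, cyclin and CDK genes), the median was -0.53 on replicate 1 of root AGR1/7 and 0.68 on replicate 1 of root WT, each relative to the other 3 arrays. It was -0.40 on replicate 2 and 0.44 on replicate 4 of root AGR1/8, where the members had -0.39 and 0.39. Cellulose synthases had -1.08 on replicate 1 of root AGR1/7 and 1.09 on replicate 1 of root WT. The 25 aquaporin probe sets did not share the shift (0.09 and 0.05), nor did 9 root markers (0.01 and -0.07) or 9 shoot markers (0.15 and 0.11). The summed intensity of the 12 matched shoot marker probe sets was 334.8 to 417.2 in root AGR1/7, 441.6 to 760.0 in root AGR1/8, 471.4 to 1260 in root AGR3/8 and 376.9 to 686.4 in root WT. The part of these shifts in the differences of the members was not tested.

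In the mean of the lines in root, 0 of 26 cell division probe sets were called, with a median of -0.41 and 21 below 0. Of 13 cellulose synthase probe sets 7 were called lower, with a median of -0.88, among them CESA6 at -1.04 ± 0.23, the secondary wall subunit CESA4 at -1.04 ± 0.29 and the primary wall subunit CESA1 at -0.99 ± 0.23 (adjusted p = 0.0206, 0.046 and 0.0267). Of 22 cellulose synthase-like probe sets 4 were called lower and none higher, among them CSLC9 at -0.91 ± 0.19 and CSLC7 at -0.89 ± 0.22 (adjusted p = 0.0145 and 0.0287). In Arabidopsis, CSLC enzymes make the glucan backbone of xyloglucan, the substrate of XTHs. CSLA1, of the mannan synthase family, fell by 0.92 ± 0.23 (adjusted p = 0.0339).

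Of 10 xylan glycosyltransferase probe sets 4 were called lower, led by GT43A at -1.21 ± 0.23 (adjusted p = 0.00882) and 2 probe sets of IRX9L at -0.60 and -0.57. A list meant for wall glucanases and pectin enzymes matched only GLU genes, PL10A and PL10B, so nothing is said of pectin enzymes. Of its 12 tested probe sets 3 were called lower, the glucanase genes GLU5 at -1.44 ± 0.37, GLU2 at -0.82 ± 0.22 and GLU10 at -0.60 ± 0.15 (adjusted p = 0.0345, 0.0446 and 0.0314). Of 25 aquaporin probe sets 1 was called lower, and their median was 0.00. It was a probe set of the plasma membrane aquaporin PIP2;1 (-0.31), whose other matched probe sets were not called. Of 9 root markers 1, the silicon channel LSI1, was called higher (0.24). Neither of the 2 root hair genes matched, CSLD1 and RHD3, was called. Without root WT replicate 1, 1 of 13 cellulose synthase, 1 of 21 cellulose synthase-like, 3 of 10 xylan, 0 of 13 glucanase list, 0 of 25 aquaporin and 0 of 9 root marker probe sets were called. Over all probe sets 469 were called higher and 313 lower without that array, and 1250 higher and 777 lower with it. The fit without both root WT 1 and root AGR1/7 1 was chosen after seeing the data. It called lower 6 of 13 cellulose synthase, 4 of 22 cellulose synthase-like, 4 of 10 xylan and 2 of 13 glucanase list probe sets. It called 1 of 25 aquaporin probe sets higher, and 909 higher and 646 lower over all probe sets. The cellulose synthase median was -0.63 without root WT 1 and -0.55 without both, with 12 of 13 below 0 each time.

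In shoot, none of 21 tested members was called in the mean of the lines, beside 1.57% of all probe sets, and 4 had an unadjusted limma p under 0.05. The members' median was -0.10, against 0.00 over all probe sets, with 15 of 21 below 0. None was called in shoot AGR1/7 (1.6% of all probe sets; 5 members at an unadjusted p under 0.05), in shoot AGR1/8 (1.82%; 3 members) or in shoot AGR3/8 (0.868%; 3 members). The F test among the lines called none (2.26% of all probe sets; 3 members). Of the pairwise line differences in shoot, AGR3/8 minus AGR1/7 called 1 of 21 members, EXLA1, beside 2.12% of all probe sets. AGR1/8 minus AGR1/7 called none (0.325%; 2 members at an unadjusted limma p under 0.05), nor did AGR3/8 minus AGR1/8 (0.991%; 2 members).

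The members with the highest signal in shoot WT did not pass the test against WT in any line. EXLA1 averaged 230.0 ± 64.6 in shoot AGR1/7, 301.8 ± 22.5 in AGR1/8, 394.0 ± 89.8 in AGR3/8 and 315.9 ± 66.7 in WT (SD, n = 4 each). AGR3/8 had 273.2, 386.6, 432.6 and 483.7, against 158.7, 315.6, 221.8 and 223.8 in AGR1/7, so 1 array of each line reached into the range of the other. AGR3/8 exceeded AGR1/7 by 0.75 ± 0.18 (SE; adjusted p = 0.0407), while the F test over all 3 lines missed the threshold (adjusted p = 0.0738). The pairwise call was lost under 12 of 26 alternatives, among them leaving out AGR1/7 replicate 1 (0.59; adjusted p = 0.132). EXPA10 averaged 154.2 ± 10.4 in shoot AGR1/7, 159.3 ± 25.5 in AGR1/8, 145.6 ± 13.0 in AGR3/8 and 144.8 ± 18.3 in WT, a mean difference of 0.07 ± 0.09 (SE; adjusted p = 0.8). EXLA3 and EXPB3 gave -0.20 and -0.28 (adjusted p = 0.526 and 0.788).

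EXLA4, the member higher in shoot, had 39.8, 51.5, 40.1 and 22.9 in shoot AGR1/7, 48.7, 46.0, 43.4 and 57.0 in shoot AGR1/8, and 49.0, 46.7, 44.2 and 41.2 in shoot AGR3/8, against 45.8, 67.8, 61.4 and 57.9 in shoot WT. All 12 line arrays were below the WT mean, and the difference of -0.31 ± 0.12 was not called (adjusted p = 0.266). XTH8 averaged 62.7 ± 27.3 in shoot AGR1/7, 45.0 ± 14.6 in AGR1/8, 42.1 ± 15.3 in AGR3/8 and 88.2 ± 62.9 in WT (SD, n = 4 each). Its WT mean rested on replicate 1 at 182.3, and the difference was -0.56 ± 0.25 (SE; adjusted p = 0.329).

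EXPB17 set 2, named after its values were seen, had the smallest adjusted p of the members in the shoot mean of the lines. It had 17.2, 22.3, 16.3 and 17.3 in shoot AGR1/7, 17.5, 20.0, 14.9 and 11.9 in shoot AGR1/8, and 10.9, 13.9, 15.9 and 21.8 in shoot AGR3/8, against 11.7, 9.4, 7.5 and 1.6 in shoot WT. All but 1 of the 12 line arrays exceeded every WT array, and the difference was 0.48 ± 0.13 (adjusted p = 0.0834). Set 1 of the same gene was dim in shoot, at 2.4 to 7.5 on all 16 arrays, and did not pass the filter there.

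Whether a line changed a member differently in the 2 organs was tested with the fit over all arrays. The mean effect of the lines in root minus that in shoot called none of 27 members, beside 1.95% of all probe sets, with 5 members at an unadjusted limma p under 0.05. AGR1/7 had none (3.04% of all probe sets; 10 members at an unadjusted p under 0.05), and AGR1/8 had none (0.619%; 0 members). AGR3/8 had 1 of 27, EXPA16, beside 2.25% of all probe sets. EXPB11, the member called in root, gave -0.48 for the mean of the lines (adjusted p = 0.351), so its change was not shown to differ between root and shoot.

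EXPA16 (LOC4341549) had 163.7, 194.3, 158.5 and 129.4 in root AGR3/8, against 144.7, 136.7, 78.7 and 131.9 in root WT. In shoot it had 11.6, 8.0, 4.8 and 8.5 in AGR3/8, against 21.7, 23.2, 16.5 and 18.7 in WT. The shoot groups did not overlap and the root groups did. The separate differences were 0.37 ± 0.20 in root (adjusted p = 0.264) and -0.58 ± 0.17 in shoot (adjusted p = 0.0974), neither called, and the difference between them was 0.95 ± 0.25 (adjusted p = 0.0443). It was 1.40 with a constant of 4 and 0.50, no longer called, with 64 (adjusted p = 0.0888), and the call was lost under 17 of 42 alternatives. For AGR1/7 the same quantity was -0.10 (adjusted p = 0.892) and for AGR1/8 it was 0.21 (adjusted p = 0.824).

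**Figure D5:**
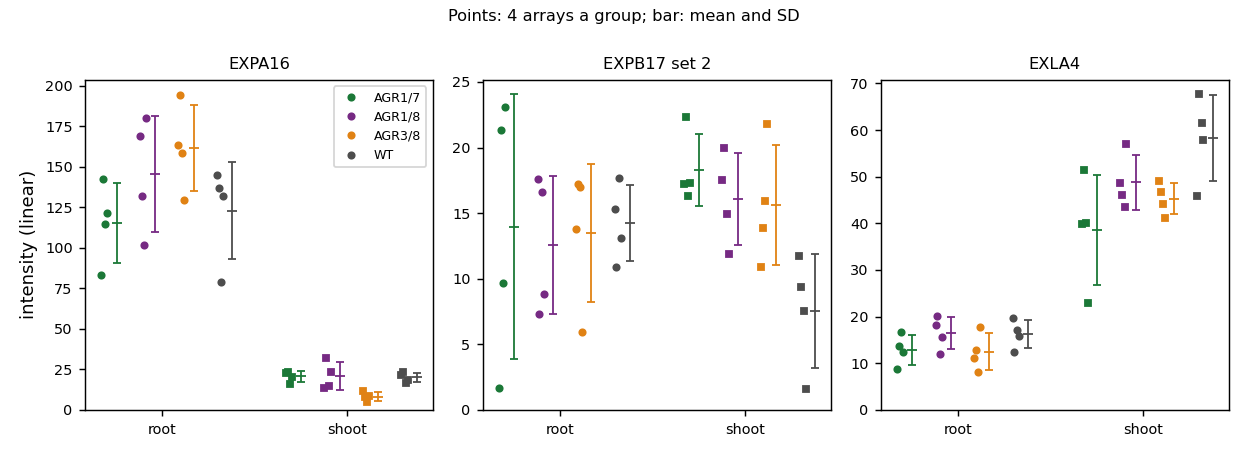
Intensity (linear axis from 0) of EXPA16, EXPB17 set 2 and EXLA4 on the root arrays (circles) and shoot arrays (squares) of AGR1/7, AGR1/8, AGR3/8 and WT, 4 arrays a group, with the mean and SD as a bar. EXPA16 in AGR3/8 lies at 129.4 to 194.3 in root and 4.8 to 11.6 in shoot, EXPB17 set 2 has its lowest mean in shoot WT, and EXLA4 is higher in shoot in every group.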

How the data were processed

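Each of the 32 Affymetrix rice arrays was 1 sample. The deposited values are probe set intensities on a linear scale. They were made with software not given in the sources used here. The 2% trimmed mean of every array was close to 100.02, and no detection calls were used. Genes were taken from the platform annotation, updated through the RefSeq gene table by gene ID: 22436 probe sets had 1 gene, 95 had several, and 34663 had none. The 187 control probe sets were left out.

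From the deposited intensity, log2(intensity + 16) was computed, the dimmest 33.3% of probe sets by mean were left out in each fit, and limma 3.58.1 in R 4.3.3 (lmFit, contrasts, eBayes with trend) was fitted over the 16 arrays of a tissue for the lines, and over all 32 for root minus shoot and for differences between organs. P-values were adjusted by the Benjamini-Hochberg method over all 38129 probe sets tested.

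Members, context lists and tests were chosen with earlier results of these data known. Members named are those called, the brightest 6 per organ, and those with the largest root minus shoot differences; other members are given by role. Up to 3 called genes per context list are named. The lists match names only, so they hold a few genes of another function (a kinase named PIP5K among the aquaporins, PL10A and PL10B in the glucanase list). Proton pumps and sequences were not used here. The alternatives tried were other constants, filters, normalizations, variance priors, array weights, 1 common fit, the line as a random unit, a replicate block and leaving out each array. The fits were tested on simulated data.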

Additional observations from a re-analysis of the deposited data

Results flagged for a closer look

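Dixon's ratio is the gap of an array to its nearest neighbour, divided by the range. Of 196 sets of 4 arrays (1 member probe set in 1 group), 16 (8.16%) held an array past its critical value. The nominal rate is about 5%, but the sets share the same 32 arrays. The share over all probe sets was not computed, so no excess is read from the 8.16%. In root AGR1/7, replicate 1 was the lowest array for EXPA10 (0.94), EXPB3 (0.839), EXPB4 (0.924) and EXPB6 (0.844) and the highest for EXLA1 (0.91). EXPA10 had 81.0 there, with 183.9 to 193.4 on the other 3 arrays, and EXPB4 had 143.8, with 373.1 to 402.6 on the others. Other arrays of root AGR1/7 were high for EXPA1 (0.886), EXPA7 set 2 (0.925) and EXPB9 (0.871). In root WT, replicate 1 was high for EXLA1 (0.899) and replicate 3 low for EXPA16 (0.843).

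In shoot, the arrays apart were low ones for EXPA1 (0.947), EXPA6 (0.877), EXPB8 (0.914) and EXLA2 set 2 (0.91) in AGR1/7 and for EXPB7 (0.83) in AGR1/8. The XTH8 value of WT replicate 1 was a high one (0.849), at 182.3 with 51.8 to 63.7 on the others. Of the differences between organs, EXPA16 in AGR3/8 passed the test, with 0.946 for the effect in root minus that in shoot. The causes of these values were not tested.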

How the results depend on the processing

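The WT root minus shoot result kept its direction and size of count under every alternative run. When single arrays were left out, 21 to 23 members were called. Under each other setting 22 were higher and 1 lower, except 18 and 1 of 21 tested with a stricter filter on dim signal. With no filter that count covers the 27 members of the main fit alone, so dimmer members could not add to it. The line results did not keep their counts. In root, the mean of the lines called 0 members with no filter, 2 with the stricter filter (EXPB4 added), 4 in 1 fit over all 32 arrays (EXPA5, EXPB2 and EXPB4 added) and 0 with lines treated as random units. Array weights left the count at 1, with EXLA3 called in place of EXPB11. Root AGR3/8 called 0 with no filter, 0 with no trend in the variance prior, 5 with array weights (EXPA5, EXPB2, EXPB4, EXPB11 and EXLA3) and 7 in the common fit. Array weights gave 1 for the F test in root, 1 in the mean of the lines in shoot and 1 in shoot AGR1/7 (both EXPB17 set 2, higher), and 1 for the AGR1/7 effect between organs (EXPA2). The common fit gave 2 in root AGR1/7. The AGR3/8 effect between organs gave 0 with a constant of 64, with no filter and with no trend. Without both root WT 1 and root AGR1/7 1, chosen after seeing the data, root AGR1/8 called 1 (EXPA2), root AGR3/8 called 2 (EXPB4 and EXLA3), and the root F test 1.

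Leaving out single arrays gave 0 to 3 members in the root mean of the lines, 0 to 5 in root AGR3/8, 0 to 1 in the shoot F test and in the AGR1/7 and AGR3/8 effects between organs, and 0 in the other comparisons with WT and between organs. The root mean of the lines gave 0 without WT 1, 3 or 4, AGR1/7 3, AGR1/8 3 or any AGR3/8 array, 2 without WT 2 or AGR1/7 1, and 3 without AGR1/8 4. Root AGR3/8 gave 4 without WT 2 5 without AGR1/7 1, and 0 without WT 1 or 3, AGR1/7 2, 3 or 4, AGR1/8 1 or 3, or any AGR3/8 array. The AGR3/8 effect between organs was lost without any shoot WT array, shoot AGR1/7 4, shoot AGR3/8 2, 3 or 4, root WT 3, root AGR1/7 3 or 4, or root AGR3/8 1, 2 or 3. EXPB11 stayed called under 15 of 28 alternatives (adjusted p 0.0083 to 0.148), EXPA5 in AGR3/8 under 12 of 27 (0.0168 to 0.133) and EXPA16 under 25 of 42 (0.0239 to 0.0984). The members' median in the shoot mean of the lines ranged from -0.14 to 0.00696 when single shoot arrays were left out, and was above 0 without shoot WT replicate 4 alone. The pairwise line difference AGR3/8 minus AGR1/7 in shoot (EXLA1) called 0 members with no filter, with no trend and in the common fit, and 0 to 3 without single arrays: 3 without AGR3/8 1, and 0 without AGR1/7 1, 3 or 4, AGR1/8 2, 3 or 4, or AGR3/8 2, 3 or 4. AGR3/8 minus AGR1/8 in root called 2 (EXPA6 higher, EXPB7 lower) with array weights and without both root arrays, and 0 to 1 without single arrays (1 without AGR1/7 1). The causes were not tested.

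Whether replicate numbers pair the samples was not settled, and the main fits used no replicate block. Same-numbered root arrays correlated at -0.172 to 0.419 in their deviations, over 0.1 in 9 of 24 pairs. Of the 16 root arrays 6 lay closest to their own number, where 1 in 4 would if the numbers had no meaning. In shoot the range was -0.0488 to 0.193 (1 of 24 pairs over 0.1, 8 of 16 arrays). Between root and shoot of the same line it was -0.0325 to 0.221 (3 of 16 pairs). Over both organs together 16 of 32 arrays lay closest to their own number, a count that also compares arrays within an organ. The shares of arrays closest to their own number were thus above 1 in 4. With the replicate block the root mean of the lines called 3 members (EXPA5, EXPB11 and XTH8), root AGR3/8 called 2, the shoot F test 1, and AGR3/8 minus AGR1/7 in shoot 2 (EXLA1 and EXPA16). Signal near the filter, 6.58 in root and 6.93 in shoot, limits what can be seen for the dim members.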
